A study of Mus musculus with 6 samples.

Results

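A set of 10 genes that mark cartilage cells and tendon cells was followed in mouse calvarial osteoblast cultures treated with ZM. They were picked by symbol from the 31401 genes of the deposited table, and all 10 were found: the transcription factors Sox9, Sox5, Scx and Mkx, the matrix genes Acan, Hapln1, Comp, Matn4 and Prg4, and the membrane protein gene Tnmd. The ZM group was 3 cultures kept for 6 days in osteogenic induction medium with 10 μM ZM (ZM-306416 in the series title, a compound known to inhibit the kinases of VEGF and EGF receptors). The Ctrl group was 3 cultures kept for the same time in that medium without ZM. All 6 came from wild-type C57BL/6 mice aged 3 days, as cells released by trypsin and collagenase from skull bones, and carried a single batch label. The labels leave unsaid if samples within a group are separate isolations or animals. The p-values below therefore hold for these 6 samples only. They set the group difference against the scatter within groups, and that scatter may be technical.

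Bone, cartilage and tendon cells share a mesenchymal origin. SOX9 starts the cartilage programme and, with SOX5 and SOX6, switches on the genes of the cartilage matrix, in which aggrecan is bound to hyaluronan by link protein and type II collagen forms the fibrils. Scleraxis (SCX) and mohawk (MKX) are transcription factors of tendon and ligament cells, and tenomodulin (TNMD) is a surface protein of mature tendon cells whose gene needs SCX in developing mouse tendon.

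With ZM the cartilage factor Sox9 and the tendon factor Scx moved in opposite directions, and so did Scx and the tendon gene Tnmd. Sox9 was 2.38-fold higher, Tnmd 3.92-fold higher, Matn4 6.39-fold higher and Comp 1.83-fold higher in ZM than in Ctrl cultures, while Prg4 was 2.75-fold lower and Scx 2.29-fold lower. Sox5 was slightly higher and Mkx slightly lower. Hapln1 passed no test, and Acan was almost without reads in both groups. By edgeR's quasi-likelihood test with Benjamini-Hochberg adjustment over all 17533 tested genes at 0.05, 9 of the 10 could be tested, 5 rose and 3 fell. Of all tested genes 45.3% were called, 22.8% higher and 22.4% lower, and the count of 8 has to be read against that level. In these 8 genes the ZM and Ctrl values, as CPM (counts scaled to the TMM library size), also did not overlap, as in 54.2% of tested genes.

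Total counts ran from 44714005 to 57020669 in ZM and from 42721326 to 69867931 in Ctrl libraries. Of the called genes 50.4% were higher with ZM, and 62.2% with scaling by library size alone (62.8% on the FPKM scales). Library-size scaling left the direction and call of all 8 called genes as they were. The osteoblast label was checked against 11 markers: the collagen gene Col1a1 stood, in deposited FPKM (counts scaled to gene length and library total), at 1364 ± 45.1 FPKM in ZM and 1326 ± 57.0 FPKM in Ctrl cultures (SD, n = 3 each), and Runx2, the osteoblast master factor, at 4.67 ± 0.19 and 3.68 ± 0.22 FPKM. In 3 of the 11, Bglap, Ibsp and Sp7, both group means were under 1 FPKM. Alpl was under 1 FPKM in Ctrl cultures alone, at 0.630 ± 0.067 FPKM, against 7.82 ± 0.26 FPKM in ZM cultures. The late marker osteocalcin (Bglap) had 2 to 6 counts per ZM library and 4 to 9 per Ctrl library, and Ibsp 8 to 14 and 6 to 10. Sp7, named after its values were seen, was at 0.744 ± 0.101 FPKM in ZM and 0.396 ± 0.063 FPKM in Ctrl cultures. Macrophage transcripts were abundant: the 10 macrophage markers, each at 1 FPKM or more in at least 1 group mean, summed to 7091 to 7880.5 FPKM in ZM and 13153 to 13559.8 FPKM in Ctrl cultures, and 9 of them fell and 1 rose. Most of each sum was 1 gene, Lyz2, at 6720 ± 374 FPKM in ZM and 12233 ± 220 FPKM in Ctrl cultures. The median log2 fold change of the 10 was -0.50, and that of Lyz2 was -0.92 ± 0.04. In bulk RNA fewer cells of a type and less RNA per cell cannot be told apart, and the part of such shifts in the values below was not tested.

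**Figure D1:**
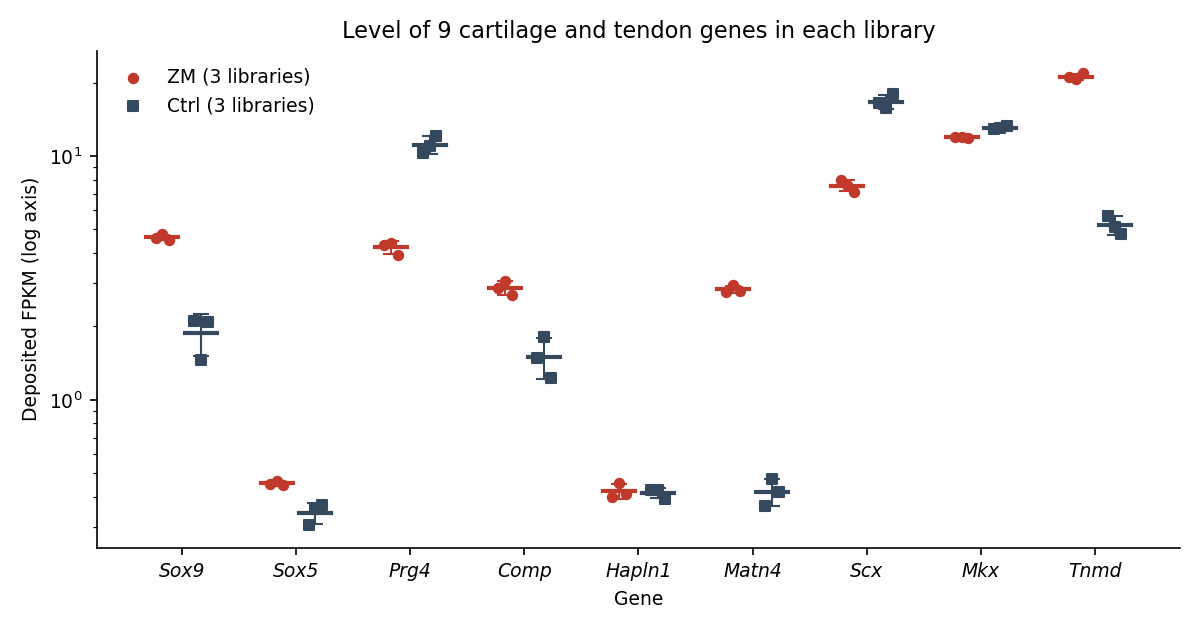
Deposited FPKM (counts scaled to gene length and library total, log axis) of 9 of the genes in each of the 3 ZM libraries (circles) and 3 Ctrl libraries (squares), with the mean and SD of each group. Acan, at 0.00704 FPKM or less in every library, is not drawn. Hapln1 is the gene whose groups overlap.

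Among the cartilage factors, Sox9 (chromosome 11, 112782224 to 112787760, plus strand, mm10, 3 exons) was measured at 4.62, 4.76 and 4.51 FPKM in ZM cultures, against 2.11, 1.45 and 2.09 FPKM in Ctrl cultures. Every ZM culture was above every Ctrl culture, and the Ctrl values were the more scattered, with a coefficient of variation of 2.79% in ZM and 19.7% in Ctrl cultures. The log2 fold change was 1.25 ± 0.12 (SE; adjusted p = 1.1e-05).

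Sox5 (chromosome 6, 143828425 to 144781977, minus strand), a partner of SOX9 that lacks an activation domain of its own, was low. It was at 0.453, 0.464 and 0.449 FPKM in ZM and 0.306, 0.355 and 0.369 FPKM in Ctrl cultures, a log2 fold change of 0.34 ± 0.10 (adjusted p = 0.012). Without Ctrl sample 1, the lowest of the 6, the call ended (0.27, adjusted p = 0.053). The antisense gene Sox5os1 covers 9.25% of its exon length, and with the strand setting of the counting unknown, reads of both cannot be told apart there. The third factor, Sox6, was higher than Sox5 per length, at 2.27 ± 0.07 FPKM in ZM and 1.63 ± 0.06 FPKM in Ctrl cultures (SD, n = 3 each), with a log2 fold change of 0.42 ± 0.05 (adjusted p = 3.9e-06).

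The fold change was larger for Sox9 than for Sox5. The ratio of Sox9 to Sox5 in FPKM was 10.2, 10.3 and 10.03 in ZM and 6.88, 4.09 and 5.66 in Ctrl cultures, and the groups did not overlap. The ratio was 1.88-fold higher with ZM as a geometric mean. By exact permutation of the 6 samples, two-sided, p was 0.1 (adjusted p = 0.1 over 2 ratios), the smallest value that 3 against 3 allows, so 0.05 could not be reached.

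The cartilage matrix genes split. Acan (chromosome 7, 79053483 to 79115099, plus strand), which encodes aggrecan, the main proteoglycan of cartilage, had 3, 2 and 2 counts in ZM and 0, 2 and 0 counts in Ctrl cultures. A count of 0 allows a level of up to 3 counts, or 0.0491 and 0.0714 CPM in Ctrl samples 3 and 1, so no fold is given and Acan did not pass the expression filter of the test. Its promoter is shown with that of Tnmd, the gene with the highest level of the 10 in ZM cultures, to set the genes of lowest and highest RNA level there side by side. Both are the 220 bases that lie 250 to 31 bases before the RefSeq start (GRCm38.p6, plus strand), chrX:133850758-133850977 for Tnmd and chr7:79052976-79053195 for Acan, and hold no annotated exon. Capitals mark matches to the E-box CANNTG, the kind of site basic helix-loop-helix factors such as SCX bind.
Tnmd: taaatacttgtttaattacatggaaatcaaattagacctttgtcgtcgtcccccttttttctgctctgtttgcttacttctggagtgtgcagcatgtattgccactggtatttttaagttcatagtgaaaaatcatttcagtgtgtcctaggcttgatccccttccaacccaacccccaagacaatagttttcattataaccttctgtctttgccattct
Acan: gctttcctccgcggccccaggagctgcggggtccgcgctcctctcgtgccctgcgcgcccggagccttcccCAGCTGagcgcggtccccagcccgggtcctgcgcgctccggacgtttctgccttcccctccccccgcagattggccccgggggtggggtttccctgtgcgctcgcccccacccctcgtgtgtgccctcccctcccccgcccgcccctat
Acan has 1 E-box here and Tnmd none, and neither holds the SOX core AACAAT on either strand. Of 32851 RefSeq promoters cut in the same way, 62.1% hold an E-box and 8.65% the SOX core. The Tnmd stretch is 38.6% G and C, the Acan stretch 75.9%, and the median promoter 51.8%. These matches describe the letters of these windows only. RefSeq promoters were found for 5 of the 10 genes.

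Hapln1 (chromosome 13, 89539796 to 89611652, plus strand), the link protein that ties aggrecan to hyaluronan, was at 0.398, 0.455 and 0.410 FPKM in ZM and 0.428, 0.427 and 0.392 FPKM in Ctrl cultures. These values overlap. The log2 fold change was -0.04 ± 0.15 (adjusted p = 0.84), and its sign turned with scaling by library size alone (0.017). Hapln4, a link protein known from brain and named after its values were seen, was 0.472 ± 0.041 FPKM in ZM and 0.775 ± 0.077 FPKM in Ctrl cultures (log2 fold change -0.78 ± 0.15, adjusted p = 4.9e-04).

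Comp (chromosome 8, 70373558 to 70382066, plus strand), the cartilage oligomeric matrix protein of cartilage and tendon, was at 2.88, 3.08 and 2.70 FPKM in ZM and 1.48, 1.80 and 1.22 FPKM in Ctrl cultures. No Ctrl culture reached a ZM culture, although the Ctrl values varied by 19.3%. The log2 fold change was 0.88 ± 0.13 (adjusted p = 4.2e-05). The related thrombospondin genes Thbs1 and Thbs2 were far higher in level: Thbs2, named after its values were seen, was at 773 ± 22.9 FPKM in ZM and 571 ± 12.7 FPKM in Ctrl cultures, and Thbs1 at 962 ± 60.6 and 1215 ± 15.9 FPKM, with log2 fold changes of 0.38 ± 0.03 and -0.40 ± 0.04 (adjusted p = 6.0e-08 and adjusted p = 3.6e-07).

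Matn4 (chromosome 2, 164389393 to 164405160, minus strand), a matrilin and so an adapter between other matrix proteins, had the largest change of the 10 genes. It was measured at 2.77, 2.95 and 2.79 FPKM in ZM cultures, against 0.366, 0.476 and 0.420 FPKM in Ctrl cultures. The groups were far apart: in ZM cultures its values overlapped those of Comp, and in Ctrl cultures those of Hapln1. The log2 fold change was 2.68 ± 0.10 (adjusted p = 2.3e-12), and 0.74% of tested genes changed by more in either direction. On the log2(FPKM + 1) scale, which shrinks changes of low genes, it was 1.43. Of the other matrilins, Matn2, named after its values were seen, rose by 0.35 ± 0.06 on the log2 scale (adjusted p = 8.1e-05), to 4.67 ± 0.08 FPKM in ZM, against 3.52 ± 0.21 FPKM in Ctrl cultures, and Matn1, an established cartilage marker, had 2 to 4 counts in ZM and 2 to 10 in Ctrl libraries.

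Prg4 (chromosome 1, 150449412 to 150466165, minus strand) encodes lubricin, the lubricant made by the surface cells of joint cartilage, synovium and tendon sheath. It was at 4.32, 4.41 and 3.91 FPKM in ZM cultures and at 10.2, 10.9 and 12.1 FPKM in Ctrl cultures. All ZM values lay far below all Ctrl values, with a log2 fold change of -1.46 ± 0.07 (adjusted p = 7.1e-11). It had the largest fall of the 10 genes. The neighbouring gene Tpr covers 4.77% of its exon length on the other strand.

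**Figure D2:**
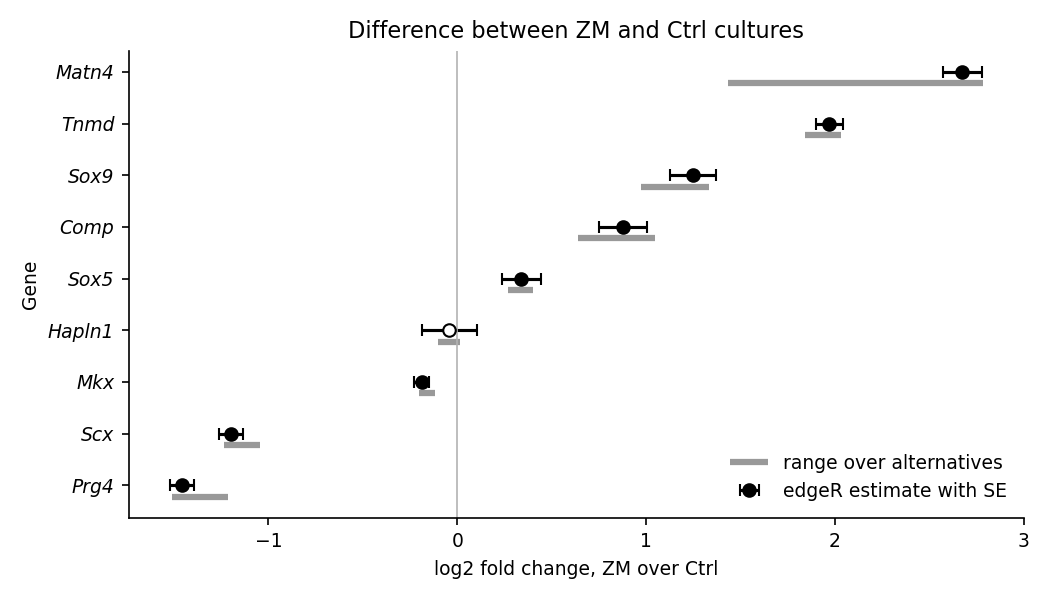
Log2 fold change (ZM over Ctrl) with its SE from edgeR for the 9 tested genes, ordered from the highest, with the range over the alternative settings as a grey bar. Filled circles are called at an adjusted p of 0.05 and the open circle, Hapln1, is not. The bar of Matn4 reaches down to 1.43, its value on log2(FPKM + 1).

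Of the tendon factors, Scx (chromosome 15, 76457452 to 76459458, plus strand) fell. Its level was 7.93, 7.62 and 7.12 FPKM in ZM cultures, against 16.4, 15.7 and 17.9 FPKM in Ctrl cultures, with a clear gap between the groups. The log2 fold change was -1.20 ± 0.06 (adjusted p = 1.7e-10). Scx lies inside the gene Bop1 on the opposite strand and shares no exon base with it. With the strand setting of the counting unknown, reads of unspliced Bop1 RNA could not be told apart from those of Scx. Their part in its counts was not tested. Mkx (chromosome 18, 6934518 to 7004780, minus strand), a homeobox factor of the tendon programme, differed little. It was at 12.0, 11.9 and 11.9 FPKM in ZM and 12.9, 13.0 and 13.3 FPKM in Ctrl cultures, a log2 fold change of -0.19 ± 0.04 (adjusted p = 8.3e-04). The difference is small, but replicates varied by no more than 1.64% in FPKM, and the groups did not overlap. A second annotated gene, AC148004.2, covers 4.91% of the exon length of Mkx on the same strand, and Rbpjl covers 2.88% of that of Matn4 on the other.

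Tnmd (chromosome X, 133850980 to 133865577, plus strand) rose. Tnmd was at 21.0, 20.6 and 21.8 FPKM in ZM cultures, against 5.69, 5.12 and 4.77 FPKM in Ctrl cultures. The lowest ZM value was well above the highest Ctrl value, and the log2 fold change was 1.97 ± 0.07 (adjusted p = 1.4e-12). The related chondromodulin gene Cnmd, of cartilage, was near the floor, with 0, 0 and 1 counts in ZM and 0, 4 and 0 in Ctrl libraries. Tnmd and its known activator Scx moved in opposite directions. The ratio of Tnmd to Scx in FPKM was 2.65, 2.70 and 3.06 in ZM and 0.347, 0.327 and 0.266 in Ctrl cultures, a ratio chosen after the values were seen and given with no test.

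Scx and Sox9 mark bipotent progenitors of the tendon attachment when present together in a cell. Bulk RNA cannot show if they were, and their ratio describes whole cultures only. The ratio of Scx to Sox9 in FPKM was 1.72, 1.60 and 1.58 in ZM cultures, against 7.79, 10.8 and 8.57 in Ctrl cultures. The groups did not overlap, with a log2 difference of -2.46. The same exact permutation test again gave p = 0.1, the smallest possible (adjusted p = 0.1 over 2 ratios). Scx was lower and Sox9 higher in every ZM culture than in any Ctrl culture. Both the gap and this p-value therefore followed from the values above and add nothing to them.

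The order of the levels per length changed between the groups. In ZM cultures it ran Tnmd, Mkx, Scx, Sox9, Prg4, Comp, Matn4, Sox5, Hapln1 and Acan. Comp and Matn4 overlapped in their values, as did Sox5 and Hapln1, and no other neighbours did. In Ctrl cultures the order was Scx, Mkx, Prg4, Tnmd, Sox9, Comp, Matn4, Hapln1, Sox5 and Acan, with overlaps between Sox9 and Comp and between Matn4 and Hapln1 but between no other neighbours. Tnmd was the fourth of the 10 genes in Ctrl and the first in ZM cultures. The FPKM of Scx divides by the length of 2007 bases that its annotated transcripts cover jointly. That is the whole span of the gene, taken as 1 joined exon. A shorter transcript would give Scx a higher level per length, so its place in both orders depends on this length.

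**Figure D3:**
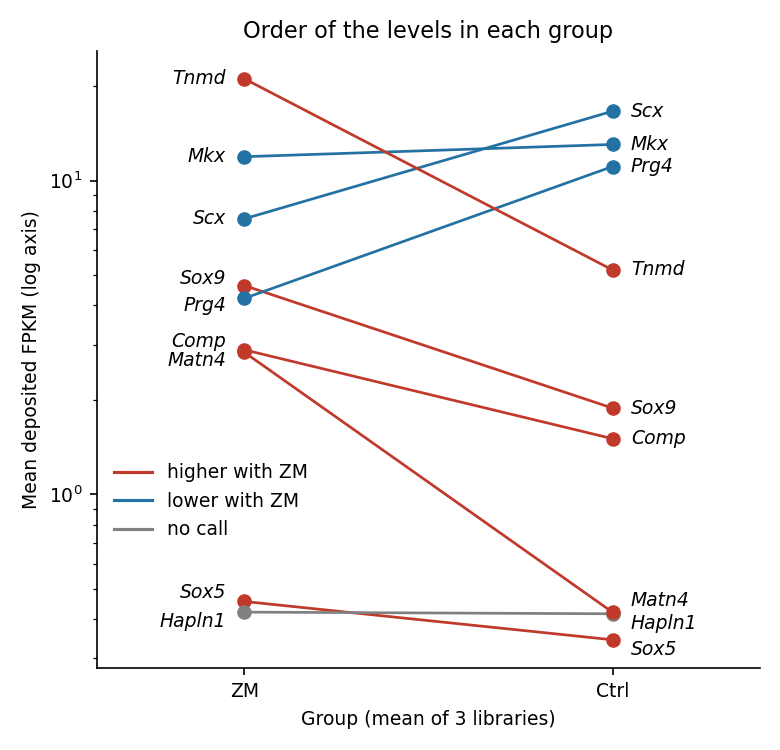
Mean deposited FPKM (log axis) of 9 genes in ZM (left) and Ctrl cultures (right), 3 libraries each, joined by a line per gene and coloured by the edgeR call. Tnmd leads in ZM and Scx in Ctrl cultures, and the lines of Matn4 and Hapln1 meet on the Ctrl side.

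Other genes of cartilage were mostly low and moved both ways. Of 28 listed chondrocyte genes 27 were in the table and 21 could be tested: 6 rose, 7 fell and 8 had no call, with a median log2 fold change of 0.08, against -0.00095 over all genes tested. This count and those of the lists that follow are to be read against the 45.3% of all tested genes called, 22.8% higher and 22.4% lower. In 17 of the 27 both group means were below 1 FPKM. Col2a1, the type II collagen gene that defines cartilage, was at 1.34, 1.41 and 1.50 FPKM in ZM and 0.869, 1.33 and 0.666 FPKM in Ctrl cultures. The lowest ZM and the highest Ctrl value nearly met in FPKM, and the groups overlapped in CPM. The log2 fold change was 0.49 ± 0.29 (adjusted p = 0.25), and of the settings run it passed in that without Ctrl sample 2 alone (0.83, adjusted p = 1.6e-05). Among the listed genes that rose were the fibrillar collagens Col27a1 (1.22 ± 0.07, adjusted p = 5.9e-10) and Col11a1 (0.45 ± 0.04, adjusted p = 3.3e-08). The other type XI chain, Col11a2, named after its values were seen, fell by 0.56 ± 0.15 (adjusted p = 0.0055). It was at 0.303 ± 0.027 FPKM in ZM and 0.427 ± 0.028 FPKM in Ctrl cultures. The chondroitin sulfotransferase gene Chst11 fell to 10.5 ± 0.19 FPKM in ZM, against 20.3 ± 1.58 FPKM in Ctrl cultures (log2 fold change -1.01 ± 0.05, adjusted p = 1.0e-09), and the small proteoglycan gene Epyc fell by 0.73 ± 0.15 (adjusted p = 6.3e-04), although 40.6% of its exon length is shared with the antisense gene Gm10754.

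Low cartilage genes, chosen after their values were seen, included large changes. The type IX collagen chain Col9a2 was at 0.199 ± 0.033 FPKM in ZM and 0.0251 ± 0.0097 FPKM in Ctrl cultures (log2 fold change 2.95 ± 0.44, adjusted p = 3.3e-05). Its partner Col9a1 rose by 1.92 ± 0.49 (adjusted p = 0.0045), with 16 to 20 counts per ZM library and 2 to 10 per Ctrl library. The other type IX chain, Col9a3, fell by 0.49 ± 0.19 (adjusted p = 0.046). It was at 0.327 ± 0.049 FPKM in ZM and 0.442 ± 0.049 FPKM in Ctrl cultures. Ucma, a secreted protein of upper growth plate cartilage, fell by 3.00 ± 0.47 (adjusted p = 5.9e-05) and had 2 to 4 counts in ZM and 26 to 40 in Ctrl libraries. Better measured was Wwp2, a ubiquitin ligase gene known as a SOX9 target and partner, at 7.18 ± 0.22 FPKM in ZM and 9.01 ± 0.42 FPKM in Ctrl cultures (log2 fold change -0.39 ± 0.04, adjusted p = 1.7e-06). Pth1r, the parathyroid hormone receptor of chondrocytes and osteoblasts, rose by 0.43 ± 0.07 (adjusted p = 4.7e-05).

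Tendon genes beyond the 10 also moved both ways. Of 14 listed 13 could be tested, of which 7 rose, 4 fell and 2 had no call (median log2 fold change 0.23). Fibromodulin, Fmod, a collagen-binding proteoglycan of tendon, was at 350, 370 and 368 FPKM in ZM cultures, against 109, 113 and 106 FPKM in Ctrl cultures. The groups were far apart, with a log2 fold change of 1.67 ± 0.04 (adjusted p = 3.7e-15). The transcriptional cofactor gene Eya2 rose by 0.63 ± 0.06 (adjusted p = 4.7e-07). The growth-factor-induced factors Egr1 and Egr2, both known to act on tendon collagen genes, fell by 1.60 ± 0.05 and 1.38 ± 0.11 (adjusted p = 7.3e-13 and adjusted p = 1.8e-08). Egr1 was at 9.06 ± 0.10 FPKM in ZM and 26.3 ± 1.88 FPKM in Ctrl cultures.

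Further tendon genes were looked at after their values were seen. Tppp3, a marker of tendon sheath cells, fell as Scx and Prg4 did, to 2.03 ± 0.05 FPKM in ZM, against 4.51 ± 0.44 FPKM in Ctrl cultures (log2 fold change -1.21 ± 0.10, adjusted p = 5.5e-08). Tenascin C, Tnc, was at 237 ± 13.8 FPKM in ZM and 364 ± 16.7 FPKM in Ctrl cultures (-0.68 ± 0.04, adjusted p = 1.5e-08). Chodl, a lectin-like membrane protein gene, had 201 to 303 counts in ZM and 11 to 22 in Ctrl libraries (4.06 ± 0.26, adjusted p = 1.2e-08). Thbs4, a thrombospondin of tendon, was at 4.81, 4.18 and 4.16 FPKM in ZM and 5.88, 4.92 and 3.79 FPKM in Ctrl cultures and had no call (adjusted p = 0.38), but passed without Ctrl sample 3 (log2 fold change -0.36, adjusted p = 0.0075).

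Genes of the joint surface and synovial lining, where Prg4 is known to be made, were mixed. Of 10 genes 7 could be tested, of which 2 rose, 2 fell and 3 had no call (median 0.32), and in 7 of the 10 both group means were under 1 FPKM. Abi3bp, a secreted matrix protein gene, was at 15.2, 16.6 and 15.8 FPKM in ZM and 2.82, 3.00 and 2.67 FPKM in Ctrl cultures (log2 fold change 2.43 ± 0.05, adjusted p = 3.7e-15). Clusterin, Clu, rose by 1.42 ± 0.04 (adjusted p = 1.8e-13). The genes that fell were Creb5 (-0.41 ± 0.07, adjusted p = 2.1e-04), a factor known to promote Prg4 expression in joint cartilage, and Dact2 (-0.83 ± 0.17, adjusted p = 7.0e-04), both under 1 FPKM and named after their values were seen.

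Family relatives of the 10 genes were also mixed. Of 21 listed 20 were in the table and 16 could be tested, of which 6 rose, 3 fell and 7 had no call (median 0.22), and Sox6, Sox8, Matn1, Matn3, Cnmd and Thbs4 stand in the lists above as well. The MKX relative Irx5 rose by 0.49 ± 0.07 (adjusted p = 3.7e-05). Versican, Vcan, the aggrecan relative of non-cartilage matrix, was at 9.50 ± 0.43 FPKM in ZM and 7.88 ± 0.46 FPKM in Ctrl cultures (log2 fold change 0.21 ± 0.04, adjusted p = 8.2e-04, named after its values were seen).

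Proteases that cut aggrecan, COMP and other cartilage matrix, with an inhibitor, mostly rose. Of 11 genes 8 rose, 2 fell and 1 had no call (median log2 fold change 0.41), where 22.8% of all tested genes rose and 22.4% fell. The aggrecanase Adamts5 was at 50.3, 52.6 and 52.7 FPKM in ZM cultures, against 11.4, 11.3 and 11.0 FPKM in Ctrl cultures (log2 fold change 2.15 ± 0.04, adjusted p = 1.5e-16). Adamts1 rose by 0.96 ± 0.05 (adjusted p = 1.3e-09) and the collagenase Mmp13, named after its values were seen, by 0.16 ± 0.04 (adjusted p = 0.0021). Stromelysin 1, Mmp3, fell to 203 ± 6.93 FPKM in ZM, against 489 ± 40.4 FPKM in Ctrl cultures (-1.33 ± 0.06, adjusted p = 4.4e-07). The inhibitor Timp3 fell by 0.13 ± 0.04 (adjusted p = 0.010), a call that ended with library-size scaling (adjusted p = 0.16), on both FPKM scales (adjusted p = 0.18 each) and in the fit lacking ZM sample 3 (adjusted p = 0.066).

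**Figure D4:**
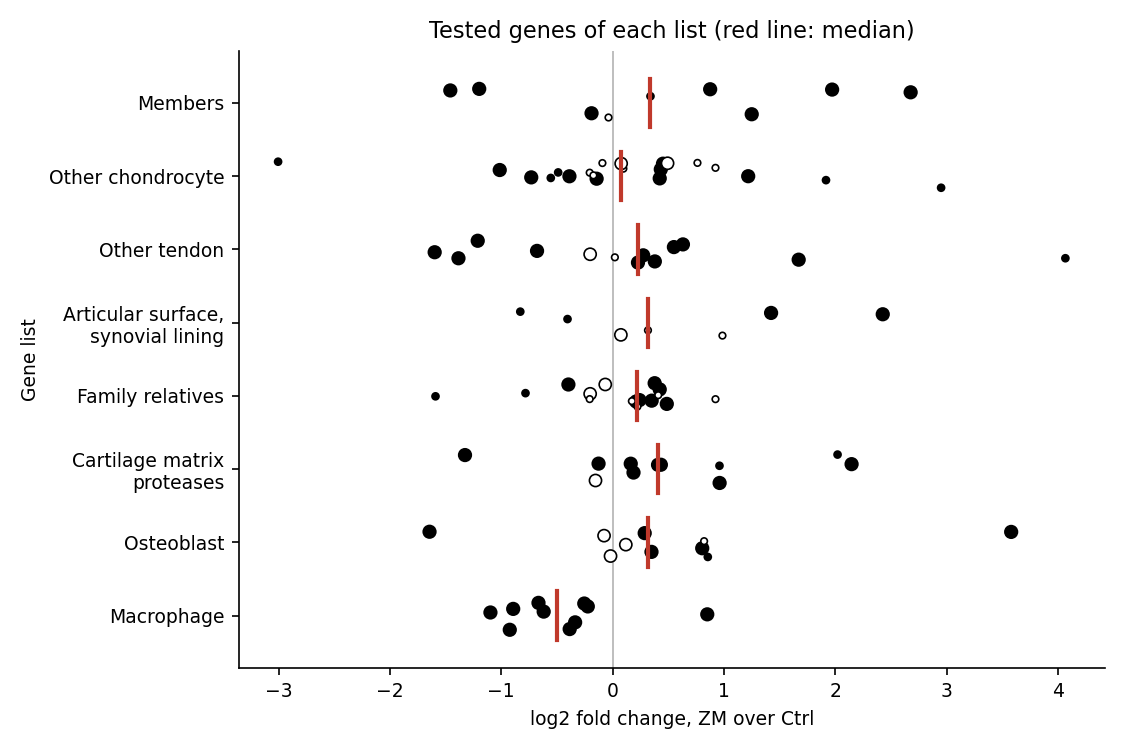
Log2 fold changes (ZM over Ctrl) of the tested genes of 8 lists. Each point is a gene, filled if called and open if not, small if both group means are under 1 FPKM, and the red line is the list's median. Points of the cartilage and tendon lists lie on both sides of 0, and 9 of 10 macrophage markers lie below it.

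Markers of other cell types were read in the same libraries. Of 10 tested osteoblast markers 5 rose, 1 fell and 4 had no call: Alpl, the bone alkaline phosphatase, rose to 7.82 ± 0.26 FPKM in ZM, against 0.630 ± 0.067 FPKM in Ctrl cultures, and Dlx5 by 0.80 ± 0.13 on the log2 scale (adjusted p = 5.0e-15 and adjusted p = 6.3e-05), while osteopontin, Spp1, fell by 1.64 ± 0.04 (adjusted p = 9.4e-15). Among macrophage markers lysozyme, Lyz2, fell by 0.92 ± 0.04 and Itgam by 1.10 ± 0.05, and Cx3cr1 rose by 0.85 ± 0.10 (adjusted p = 9.7e-12, adjusted p = 1.5e-09 and adjusted p = 3.9e-06). Exons of Itgam are shared over 68.7% of their length with the gene Gm49368. Endothelial markers were low, at a sum of 0.423 to 0.480 FPKM in ZM and 0.792 to 0.857 FPKM in Ctrl cultures, and 3 of 5 tested fell. Vwf, picked with its values in view, had 142 to 224 counts in ZM and 240 to 440 in Ctrl libraries (adjusted p = 1.0e-04), and Tie1 had 0 in each ZM library and 0 or 1 in Ctrl libraries.

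For skeletal muscle, a tissue next to tendon, the factor gene Myog had 0 counts in each ZM library and 0, 12 and 4 in Ctrl libraries. Both tested muscle markers of 8 in the table fell, led by skeletal actin, Acta1, at 1.86 ± 0.12 FPKM in ZM and 13.9 ± 1.42 FPKM in Ctrl cultures (log2 fold change -2.96 ± 0.09, adjusted p = 2.3e-13). Leaving out any sample other than Ctrl sample 2 left 1 of the 2 called. Of 4 tested adipocyte markers 3 rose and 1 fell, with lipoprotein lipase, Lpl, at 25.1 ± 1.74 FPKM in ZM and 3.41 ± 0.27 FPKM in Ctrl cultures, Fabp4 higher by 0.94 ± 0.07 and Cebpa lower by 0.35 ± 0.05 on the log2 scale (adjusted p = 1.6e-08, adjusted p = 7.0e-09 and adjusted p = 1.4e-05). Adipoq, the defining adipocyte hormone gene, had 2 counts in 1 ZM library and 0 in all others. Of 4 tested Schwann cell markers 1 fell, S100b (-0.66 ± 0.13, adjusted p = 4.7e-04), which cartilage cells also express.

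The genes whose log2 CPM most resembled that of Sox9 over the 6 libraries, among 7572 with a group mean of at least 5 FPKM, were Maml2, Vsir and Pias3 (Pearson r = 0.999, 0.998 and 0.997). For Scx they were Ctss, Gsto1 and Tmem37 (r = 0.9999, 0.999 and 0.999, of 7571). All 6 libraries fall into the 2 groups, and r was above 0.9 for 1339 genes with Sox9 and 1799 with Scx, so many genes share this likeness. The 3 most like Sox9 were called higher in ZM by 0.39, 0.40 and 0.23 on the log2 scale, less than Sox9 itself, and the 3 most like Scx had log2 fold changes of -0.76, -1.13 and -0.63.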

How the data were processed

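RNA sequencing of 6 samples was used, grouped by their titles. Tools listed in the submitters' processing notes are HISAT2 2.2.1, Subread with featureCounts 2.0.3, and DESeq2, with the build mm10. No source used here gives the annotation or the strand setting. Deposited counts are raw whole numbers per gene. The authors' FPKM can be rebuilt from count, column total and a gene length, which matched the joined exon length of GENCODE M21 to within 0.5 bases for 98.2% of genes found there.

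The 17533 genes left by filterByExpr went into edgeR 4.0.16 under R 4.3.3 (TMM scaling, robust quasi-likelihood F test, Benjamini-Hochberg adjustment, threshold 0.05). All adjusted p-values are from that fit unless an alternative is named. Each standard error is the size of the log2 fold change over the root of its F. CPM is scaled by TMM. FPKM is not, so its group means can differ slightly from the fold change.

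The 10 genes and the gene lists were chosen with earlier results of these data known. Genes named from a list are up to 2 called rises and 2 called falls, by size, with a group mean of at least 1 FPKM, and a fixed set (Col2a1, Sox6, Cnmd, Runx2, Col1a1, Alpl and Adamts5). Other genes with fold changes are marked in the text as picked with their values in view, and defining markers near 0 are given as counts. The listed Snorc, Tcf15, Emcn and Myod1 were not analysed here.

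Alternatives were DESeq2 size factors in edgeR, library size alone, a mean of at least 1 CPM, no filter, DESeq2 1.42.0, limma-trend 3.58.1 on log2(FPKM + 1) and log2(FPKM + 0.1) for genes with a mean of at least 1 FPKM, a replicate block, and leaving out each sample. No 2 libraries were copies of each other: within groups, chi-square over its degrees of freedom was 5.30 to 8.98. Coordinates are 1-based, from GENCODE M21. The level that a count of 0 allows covers counting error only.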

Additional observations from a re-analysis of the deposited data

How the results depend on the processing

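The count of called genes stayed between 6300 and 8100 over 14 alternatives, against 7939, and 7 or 8 of the 10 genes were called in each. Of 122 alternative values of single member genes 120 kept their direction and side of the threshold; the exceptions were Sox5 without Ctrl sample 1 (0.27) and Hapln1 with library size alone (0.017). For 54 of the other named genes 725 of 735 values did. Col9a3, Col11a2 and Vwf were not among these 54. Col1a1, with no call, turned its sign with library size alone (0.040), on log2(FPKM + 1) and log2(FPKM + 0.1) (0.041 each), and ran from -0.043 to 0.013 when a sample was left out. On both FPKM scales, where fewer genes were tested, the calls were 6 among other chondrocyte genes (3 higher), 2 in the joint-surface list and 0 among endothelial markers, of which 0 could be tested. With a mean of at least 1 CPM, 1 endothelial marker was called. Of the muscle markers 1 was called with DESeq2 and with library size alone, and 1 to 2 when leaving out a sample; on both FPKM scales 1 was tested and called. Depth limits what can be said of Acan (0 to 3 counts) and, beyond the 10 genes, of Cnmd, Tie1 and Adipoq (0 to 4 counts). Replicate numbers showed no sign of pairing the samples (correlations of same-numbered deviations -0.04, 0.06 and -0.01), although 3 samples per group could hide a weak pairing. With a replicate block 7752 genes were called, and 8 of the 10.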
